A study of Mus musculus with 18 samples.

Results

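A set of 50 genes of the MYC network and of ribosome biogenesis was followed in 10T1/2 cells, a mouse fibroblast line that can be turned toward adipocytes or myofibroblasts and that the labels call mesenchymal stem cells. The genes were picked by symbol from a table of counts for 54532 genes, by a list that uses no values, although earlier results of these data were known when it was drawn up. Of the 50 genes, 49 were among the 14317 genes with enough counts to be tested. The exception was Wdr74, a large subunit assembly factor, with between 0 and 3 counts over the 3 libraries of a group, and no fold change is given for it. The 50 genes comprise 5 of the MYC network, 6 of the RNA polymerase I machinery, 3 box C/D and 4 box H/ACA small nucleolar ribonucleoprotein (snoRNP) genes, 6 nucleolar scaffold and helicase genes, 12 factors of small subunit assembly, 11 factors of large subunit assembly and 3 enzymes of polyamine and purine synthesis.

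MYC is a transcription factor that binds DNA as a dimer with MAX at E-boxes, of which CACGTG is the best known form, while MXD4, MXI1 and MNT pair with MAX at the same sites and repress. RNA polymerase I copies ribosomal DNA in the nucleolus, snoRNPs guide chemical modification of the ribosomal RNA, and many assembly factors cut and fold it into the small and the large subunit. Genes of these steps are classic MYC targets, and ribosome production is tied to cell growth and to the protein output of activated fibroblasts.

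The study asked how loss of FOXS1, a forkhead transcription factor, changes the response of these cells to a profibrotic cytokine followed by an adipogenic stimulus. Its 18 libraries form 6 groups of 3, made up of wildtype (WT) cells and 2 lines labelled FOXS1 KO, clone 1 and clone 2, each either uninduced (labelled Control, with no further description of what these cells received) or stimulated, first with TGF-β1 (1 nM, 12 h) and next with DMII (48 h). DMII is an adipogenic mix that holds insulin, indomethacin, dexamethasone and 3-isobutyl-1-methylxanthine. All cells were taken past confluence before treatment, in DMEM with fetal bovine serum. Per the paper's methods, cells were starved of serum overnight before TGF-β1, and DMII was given in DMEM mixed with Ham's F-12. Whether the uninduced cells were starved or changed to that medium is not said. Serum withdrawal and medium thus cannot be told apart from TGF-β1 and DMII in the response to stimulation. Each KO line grew from a single cell after CRISPR-Cas9 editing with paired guides, so that each is 1 clone, and a difference between a clone and WT cannot be told apart from a difference that arose in cloning. Nothing in the labels says that the 3 libraries of a group came from separate cultures, so the p-values measure the spread between these libraries, which may be technical.

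Because MYC and its rivals meet at the E-box, the promoters of the genes were searched for it. RefSeq windows of 300 bases, from 250 before to 50 after each transcription start (GRCm38.p6), were at hand for 43 of the 50 genes, and 11 of these 43 genes (25.6%) held the letters CACGTG, which read the same on both strands. Among all tested genes with a window, 1175 of 10143 (11.6%) held them, and among all windows 2349 of 32851 (7.15%). Myc, Npm1, Fbl, Bop1, Rrp12, Srm and Tcof1 had no window. The stretches below are those of 6 assembly and nucleolar genes that were lower in stimulated cells of one or both clones and of 2 network genes, each printed 5′ to 3′ on the gene's strand with the E-box in capitals and up to 12 bases on either side, fewer where the window ends.
Nop2: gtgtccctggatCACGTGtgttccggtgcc
Imp4: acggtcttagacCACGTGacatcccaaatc
Pes1: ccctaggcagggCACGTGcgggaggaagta
Mybbp1a: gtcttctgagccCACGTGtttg
Wdr43: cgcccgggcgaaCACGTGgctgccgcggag
Utp20: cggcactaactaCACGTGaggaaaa
Max: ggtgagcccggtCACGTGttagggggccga
Mnt: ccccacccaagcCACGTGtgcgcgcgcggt
The Nop2 stretch lies at chr6:125131811-125131840, plus strand, with the E-box 60 bases before the transcription start. The Imp4 stretch lies at chr1:34439696-34439725, plus strand, with the E-box 121 bases before the transcription start. In Pes1 (chr11:3963965-3963994, plus strand), Mybbp1a (chr11:72441355-72441376, plus strand), Wdr43 (chr17:71616220-71616249, plus strand) and Utp20 (chr10:88826765-88826789, minus strand) the E-box began 2, 40, 17 and 37 bases after the transcription start, thus within the first exon. Those of Max (chr12:76962234-76962263, minus strand) and Mnt (chr11:74830789-74830818, plus strand) lie 3 and 123 bases before it. The other 3 genes with an E-box were Mxd4, Utp4 and Rrn3, which did not share the direction of the 6 genes printed above. Utp4 was called higher than WT in stimulated clone 2, a call that depended on how libraries were scaled. Mxd4 and Rrn3, like Max, were called in opposite directions in the 2 stimulated clones. Whether an E-box goes with lower levels in the clones was not tested. Such a match describes the letters only, and no binding was measured here.

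Each library held between 15576685 and 42005596 counts, and the r between replicates, taken over genes, was 0.963 to 0.993. Foxs1, the targeted gene, measured 1.64 to 3.25 CPM (counts scaled to a common library size) in the 6 WT libraries and 21.1 to 56.8 CPM in the 12 libraries labelled FOXS1 KO. Its RNA was thus higher, not lower, where the label says KO, and counts cannot show whether protein was made. Per the paper's methods, the edit was checked by sequencing of genomic DNA and the loss of protein by western blot. Every direction given here rests on the labels. All 10 fibroblast markers had counts in every group, and of the adipocyte markers Lep and Retn had none in any group. The macrophage marker Ptprc had no count in any group, and 6 endothelial markers summed to at most 7.92 CPM in a library. In WT cells, the sum of 8 smooth muscle and myofibroblast markers (Acta2, Tagln and others) had a median of 320.5 CPM uninduced and 2069.5 CPM stimulated, most of it from Acta2 alone (1979.1 to 2132.6 CPM in the stimulated libraries). The stimulated clones had medians of 346.3 and 388.8 CPM. The sum of 24 cell cycle genes had a median of 785.3 CPM for WT after stimulation, and of 1097.8 and 783.7 CPM for clones 1 and 2. Whether these differences in cell state have a part in the values below was not tested, and in bulk RNA fewer cells of a type and less RNA per cell cannot be told apart.

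Ribosome biogenesis genes rose when WT cells were stimulated, responded less in both clones, and were lower in the stimulated clones than in stimulated WT cells. Of the 44 tested genes outside the MYC network, 40 rose in WT, where 28.8% of all tested genes did, and 34 responded less in clone 1 and 28 in clone 2, where 15.7% and 15.3% of all genes did. In stimulated cells 36 of them were lower than WT in clone 1 and 28 in clone 2, beside 30.5% and 28.3% of all tested genes. The 45 genes outside the MYC network summed to 2379.7, 2491.7 and 2501.0 CPM in the uninduced WT libraries, in rising order, and to 4174.2, 4272.8 and 4284.3 CPM in the stimulated ones. In clone 1 the sums were 2240.9, 2322.9 and 2368.3 CPM uninduced and 2878.6, 2889.8 and 2940.5 CPM stimulated. Clone 2 gave 2728.3, 2735.0 and 2846.4 CPM uninduced and 3391.6, 3409.4 and 3560.1 CPM stimulated. No stimulated library of either clone reached the lowest stimulated WT library, while the uninduced libraries of clone 2 lay above and those of clone 1 below the uninduced WT libraries. Between medians, this uninduced shortfall of clone 1 was no wider than that of the single gene Npm1. Its mean was 405.8 CPM in uninduced WT and 220.3 CPM in uninduced clone 1. Per kilobase of exon, Npm1 (nucleophosmin, a nucleolar histone and ribosome chaperone) had the highest level in WT cells, 152.3 CPM per kb uninduced and 229.0 CPM per kb stimulated. The lowest of the 49 tested genes in uninduced WT cells was Rrp1b, at 1.77 CPM per kb.

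**Figure D1:**
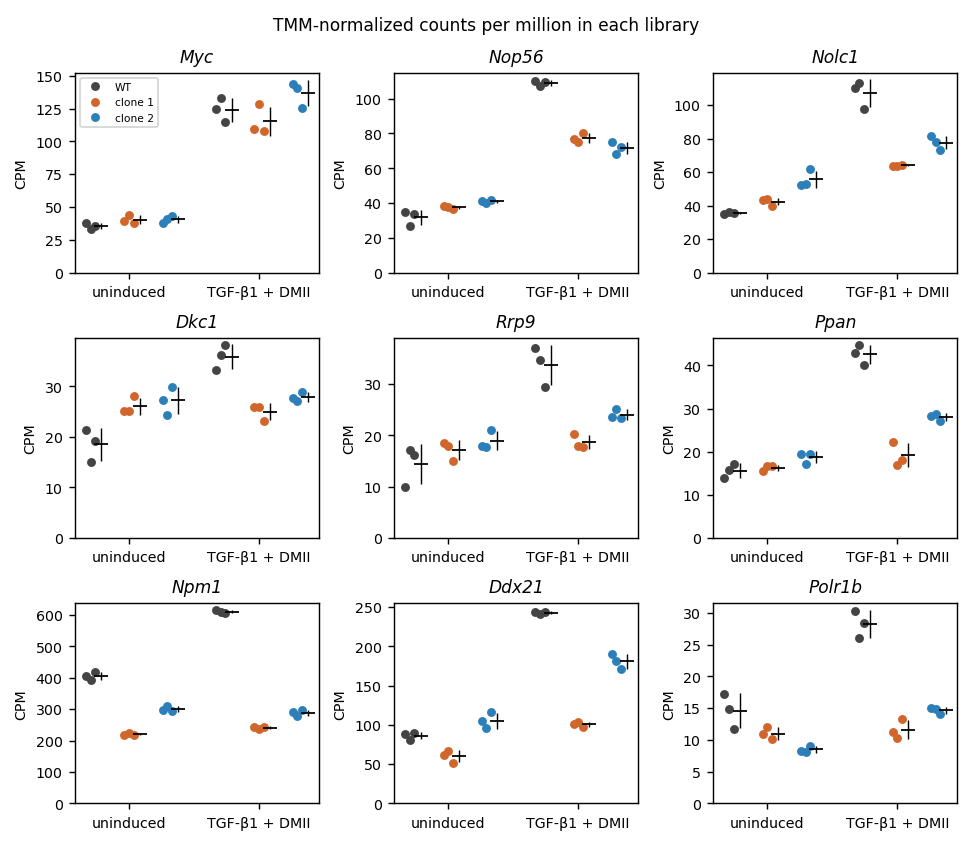
Level in CPM (y axis) of 9 of the genes in each of the 18 libraries, by group (x axis), with the group mean as a bar; the genes were chosen after their values were seen. Myc rose in every genotype to overlapping levels, whereas Npm1, Nolc1 and Ppan in stimulated clones stayed below every stimulated WT library.

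In the WT response, stimulated against uninduced WT cells, 41 of the 49 tested genes were called higher and 4 lower by edgeR's quasi-likelihood test (Benjamini-Hochberg adjusted p below 0.05), where 28.8% of all tested genes were called higher and 31.9% lower. Their median log2 fold change was 0.91, beside -0.04 over all tested genes. Past the study's fold threshold of a log2 fold change of 1, 16 were DEGs, against 6.25% of all tested genes. The 4 that fell were Mxd4, Mxi1, Mnt and Ubtf. The calls lean on how libraries are scaled: with library totals alone in place of TMM, the median over all genes moved to -0.26, 44.7% of all genes were called lower and 18% higher, and the median of the set was 0.69.

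The clones responded in the same direction but by less. In clone 1, 32 of the genes were called higher and 4 lower, with a median of 0.26 (background 25.9% higher and 28.6% lower). In clone 2, 34 were higher and 6 lower, with a median of 0.49 (background 26.7% and 29.1%). DEGs that rose numbered 4 in clone 1 (Myc, Polr1a, Nop56 and Rrp1b), where 5.95% of all genes were such DEGs. In clone 2 they numbered 3 (Myc, Polr1a and Rrp1b), beside 6.46% of all genes. Neither share of the 49 genes was far from that of all genes. Without TMM the rise was smaller still, with 18 higher, 10 lower and a median of 0.02 in clone 1 (all genes 14.8% higher, 44.8% lower, median -0.26), and with 14 lower and a median of 0.19 in clone 2 (all genes 13.6% higher, 47.9% lower, median -0.31). The fitted response was larger in WT than in each clone for 38 of the 49 genes, a count not taken over all tested genes.

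The interaction of genotype and treatment tests the difference in response itself, that is, the log2 response of the clone minus that of WT. In clone 1, 35 of the 49 genes responded less than in WT and 2 more (Mxd4 and Mxi1), with a median difference of -0.49 on the log2 scale; 15.7% of all tested genes were called lower and 15.9% higher in this test. In clone 2, 28 responded less and 3 more (Mxd4, Mxi1 and Odc1), with a median of -0.42, beside a background of 15.3% lower and 15.9% higher. Counted per gene, 26 were called lower in both clones, 2 higher in both, and none in opposite directions (0), but both tests share the WT libraries. Calls shared by both clones were not counted over all tested genes, so these counts have no background beside them. Without TMM the clone 2 background became 19.6% lower and 13.2% higher, and the median of the set -0.50.

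**Figure D2:**
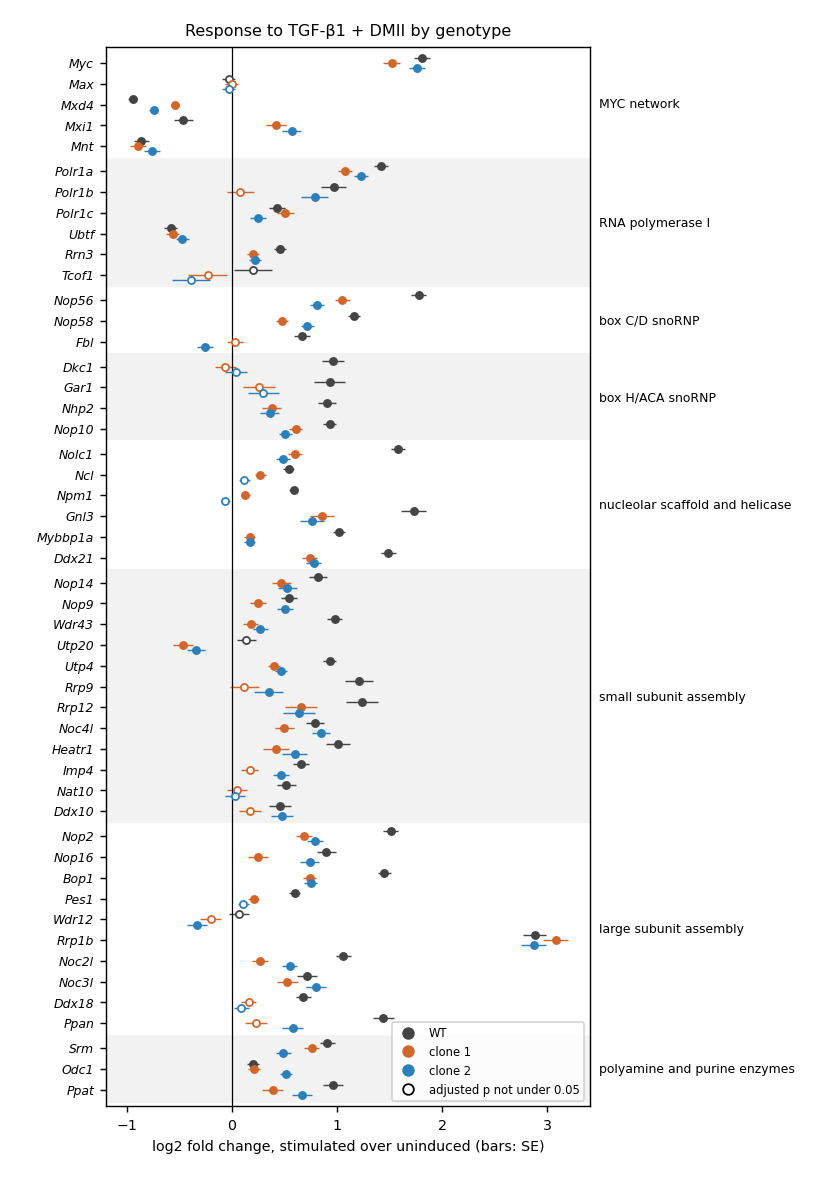
Log2 response to stimulation (x axis, stimulated against uninduced) of each of the 49 tested genes (rows, by role). Points are WT, clone 1 and clone 2, with bars of 1 SE. For most genes the WT point lies furthest right, with medians of 0.91 in WT, 0.26 in clone 1 and 0.49 in clone 2.

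Among stimulated cells, 39 of the 49 genes were lower in clone 1 than in WT and 2 higher (Mxd4 and Ubtf), with a median log2 fold change of -0.48, where 30.5% of all tested genes were called lower and 28.4% higher. DEGs in this direction were 5 of the 49 genes (Polr1b, Npm1, Ddx21, Utp20 and Ppan), a share near the 9.6% of all tested genes. Clone 2 had 29 lower and 7 higher, with a median of -0.28, beside 28.3% and 27.7% of all genes. Its only DEG among them was Npm1, where the background was 8.94%. Without TMM the clone 2 median was -0.39, with 3 genes higher, and the split of all genes was 35.2% lower and 21.8% higher. Both clones were lower for 27 genes, both higher for 1 (Ubtf), and 5 genes (Max, Mxd4, Mxi1, Rrn3 and Ncl) were called in opposite directions. These counts too have no share over all tested genes beside them, and both comparisons use the same WT libraries.

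Before stimulation the pattern was different. Uninduced clone 1 had 16 of the genes lower and 11 higher than WT (background 27.2% and 26.3%), with a median of -0.06. Uninduced clone 2 had 6 lower and 23 higher (background 26.9% and 26.3%), with a median of 0.19. The genes highest above WT in both uninduced clones were Gnl3 (log2 fold change 0.65 and 0.86), Bop1 (0.63 and 0.72), Utp4 (0.62 and 0.69) and Dkc1 (0.50 and 0.55), each called in both. Bop1 lies on chromosome 15, whose other genes had a median of 0.46 in each uninduced clone. Npm1 (-0.88 and -0.44), Mxi1 (-1.23 and -0.78), Rrp1b (-0.47 and -0.91) and Polr1c (-0.58 and -0.71) were called lower in both.

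**Figure D3:**
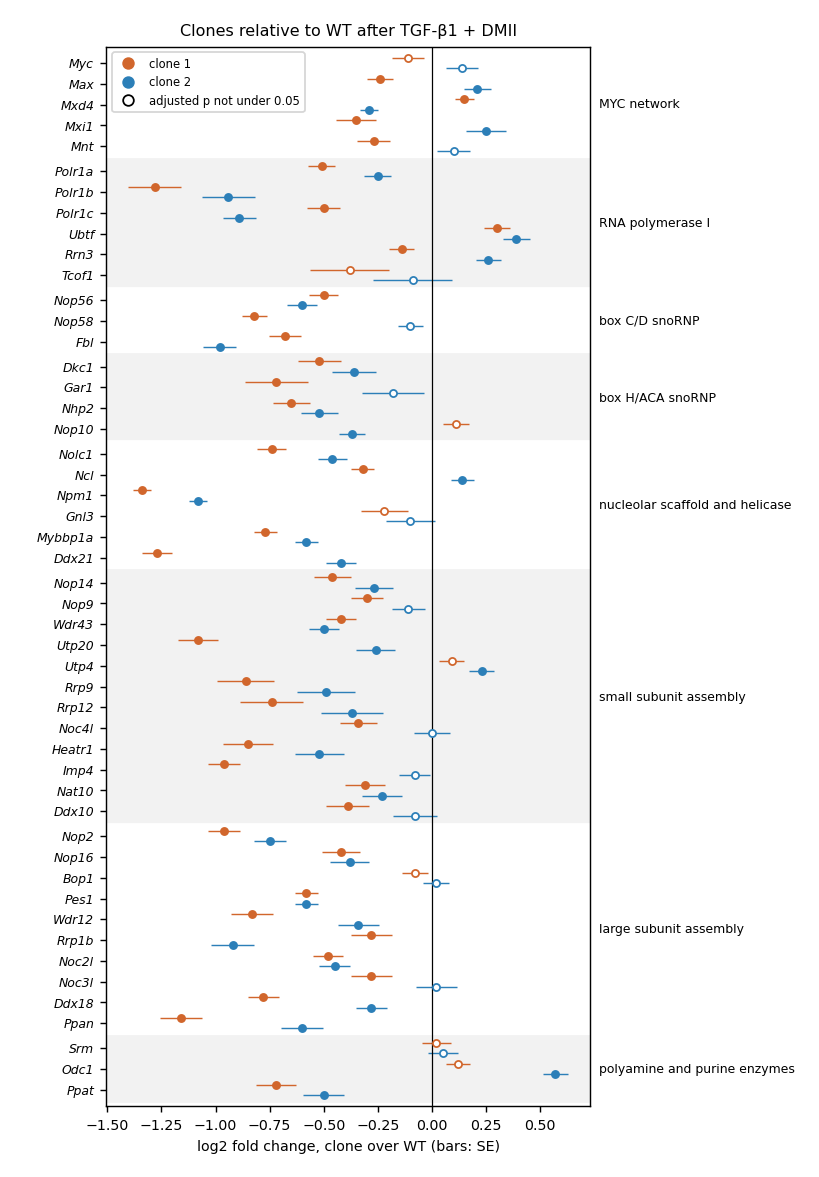
Log2 fold change of each clone against WT in stimulated cells (x axis) for each of the 49 tested genes (rows, by role), with bars of 1 SE. Most points lie left of 0, with medians of -0.48 in clone 1 and -0.28 in clone 2.

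Myc RNA rose in all 3 genotypes, and its stimulated level was not called different from WT in either clone. The gene (ENSMUSG00000022346) lies at chr15:61985391-61990374 on the plus strand of GRCm38. Uninduced libraries held 37.6, 33.3 and 35.3 CPM in WT, 39.3, 43.98 and 37.6 CPM in clone 1 and 37.6, 40.7 and 43.1 CPM in clone 2. After stimulation they held 124.3, 133.3 and 114.9 CPM in the WT libraries, 109.7, 128.2 and 107.5 CPM in clone 1 and 143.9, 141.0 and 125.5 CPM in clone 2. Every stimulated library lay above every uninduced one, and the stimulated genotypes overlapped, while uninduced the highest WT library was level, at this rounding, with the lowest of each clone (0.19 in each clone against WT, adjusted p = 0.0587 and 0.0562, neither called). Both were called without a filter (adjusted p = 0.011 and 0.00393) and without WT uninduced replicate 1 (adjusted p = 0.0356 and 0.0327). Myc rose in WT (log2 fold change 1.81, SE 0.079, adjusted p = 9.34e-18), in clone 1 (log2 fold change 1.52, SE 0.0784, adjusted p = 5.85e-16) and in clone 2 (log2 fold change 1.76, SE 0.0778, adjusted p = 1.24e-17). In stimulated cells the difference from WT was not called in clone 1 (log2 fold change -0.11, SE 0.0731, adjusted p = 0.211) or in clone 2 (log2 fold change 0.14, SE 0.0734, adjusted p = 0.11). With only the groups compared, the clone 2 difference was called (adjusted p = 0.0259). Both results depended on single libraries, since without clone 1 stimulated replicate 2 the first was -0.19 (adjusted p = 0.0343) and without clone 2 stimulated replicate 3 the second was 0.20 (adjusted p = 0.0412). Its response was lower in clone 1 than in WT (difference -0.29) (adjusted p = 0.0419), a call lost on leaving out any 1 of WT uninduced replicate 2 or 3, WT stimulated replicate 1 or 2, clone 1 uninduced replicate 1 or 2 or clone 1 stimulated replicate 1 or 3, with adjusted p from 0.0523 to 0.142. It was also lost with DESeq2 (adjusted p = 0.0647), with DESeq2 size factors (0.0579), with a filter at 1 CPM (0.0514) and with only the groups compared (0.0544). The clone 2 difference in response was -0.05 (SE 0.109, adjusted p = 0.813).

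Max, the shared partner, had no called response to stimulation, with log2 fold changes of -0.03, 0.00 and -0.03 in WT, clone 1 and clone 2, none of them called. Stimulated libraries held 85.0, 77.6 and 74.5 CPM in the WT libraries, 70.4, 65.4 and 65.3 CPM in clone 1 and 95.9, 86.8 and 91.2 CPM in clone 2. Clone 1 lay below and clone 2 above every WT library, which was also so in uninduced cells, at 81.4, 85.4 and 74.9 CPM in WT, 65.98, 65.4 and 69.1 CPM in clone 1 and 92.7, 91.2 and 96.6 CPM in clone 2. The stimulated differences were both called (clone 1, log2 fold change -0.24, SE 0.0614, adjusted p = 0.00139; clone 2, log2 fold change 0.21, SE 0.0613, adjusted p = 0.00469). Max lies on chromosome 12, whose other genes had medians of -0.25 and 0.17 in stimulated clones 1 and 2, close to its own values. Uninduced, the chromosome medians were -0.19 and 0.20. Without TMM the clone 2 call ended (0.10, adjusted p = 0.187), and the responses were -0.25, -0.24 and -0.33, all called, beside a shift of the same order in the median of all genes.

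The genes of the MAX partners that repress fell in stimulated WT cells, opposite to Myc. Mxd4 measured 348.9, 349.5 and 346.0 CPM in WT, 287.1, 298.7 and 288.5 CPM in clone 1 and 250.4, 248.3 and 241.3 CPM in clone 2 uninduced. Stimulated, it measured 183.0, 182.5 and 177.1 CPM in the WT libraries, 206.7, 203.9 and 192.2 CPM in clone 1 and 148.9, 148.3 and 146.2 CPM in clone 2. It fell in all 3 genotypes (log2 fold change -0.94 in WT, -0.54 in clone 1 and -0.74 in clone 2), by less in each clone, with differences in response of 0.41 (adjusted p = 2.08e-06) and 0.21 (adjusted p = 0.00811). The second of these was lost without a filter on low counts (0.14, adjusted p = 0.258). Mxi1 moved in opposite directions. Its uninduced libraries held 40.1, 45.9 and 37.8 CPM in WT, 17.8, 17.97 and 16.8 CPM in clone 1 and 26.3, 23.1 and 22.1 CPM in clone 2, and its stimulated ones 30.3, 30.9 and 28.7 CPM in the WT libraries, 22.04, 21.98 and 26.4 CPM in clone 1 and 34.1, 34.98 and 37.8 CPM in clone 2. In WT it fell (log2 fold change -0.46, SE 0.0903, adjusted p = 6.26e-05), while it rose in clone 1 (log2 fold change 0.42, SE 0.0966, adjusted p = 0.000481) and in clone 2 (log2 fold change 0.57, SE 0.0923, adjusted p = 4.72e-06), the clone 1 rise not being called without TMM (0.18, adjusted p = 0.109). The differences in response, 0.88 and 1.03 (adjusted p = 3.74e-06 and 1.91e-07), were the largest positive ones of the 49 genes. Uninduced, both clones lay below every WT library. Stimulated, clone 1 stayed below WT (-0.35, adjusted p = 0.00166) and clone 2 was above (0.25, adjusted p = 0.0219), the latter call being lost without TMM (adjusted p = 0.208), without a filter (adjusted p = 0.0572) or without WT stimulated replicate 3 or clone 2 stimulated replicate 3 (adjusted p from 0.0819 to 0.0947). Mnt had log2 fold changes of -0.86, -0.89 and -0.76, and its differences in response were -0.03 (SE 0.104) and 0.10 (SE 0.104), neither called. Stimulated Mnt libraries held 36.8, 36.2 and 33.4 CPM in the WT libraries, 29.4, 31.01 and 27.6 CPM in clone 1 and 37.5, 39.8 and 36.9 CPM in clone 2, with clone 1 lowest. Uninduced, Mnt measured 65.6, 63.3 and 63.8 CPM in WT, 53.8, 57.98 and 51.3 CPM in clone 1 and 62.6, 59.5 and 71.6 CPM in clone 2.

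Of the RNA polymerase I machinery, the catalytic subunits were lower in the stimulated clones and the factor Ubtf was higher. The difference in response was called lower for 3 of the 6 genes in clone 1 and 1 in clone 2, beside 15.7% and 15.3% of all tested genes. The clone 2 share, 16.7%, was near that background. In stimulated cells 4 of the 6 were lower and 1 higher in clone 1, beside 30.5% and 28.4% of all tested genes. Stimulated clone 2 had 3 lower and 2 higher, beside 28.3% and 27.7%. Polr1b, the second-largest subunit, measured 30.3, 26.0 and 28.4 CPM in the WT libraries, 11.3, 10.3 and 13.3 CPM in clone 1 and 15.1, 14.9 and 14.01 CPM in clone 2. No clone library came within the WT range, and the log2 fold changes were -1.28 (SE 0.122, adjusted p = 2.08e-10) and -0.94 (SE 0.122, adjusted p = 1.06e-07). Uninduced libraries held 17.2, 14.8 and 11.7 CPM in WT, 10.9, 12.01 and 10.1 CPM in clone 1 and 8.28, 8.15 and 9.04 CPM in clone 2, so that clone 2 began below WT. Its difference in response was called in clone 1 (difference -0.89, SE 0.177, adjusted p = 0.000192) and not in clone 2 (difference -0.17, SE 0.177, adjusted p = 0.521). Polr1c, a subunit shared with another RNA polymerase, measured 75.1, 72.2 and 84.95 CPM in the WT libraries, 58.8, 53.9 and 51.9 CPM in clone 1 and 41.5, 40.99 and 42.4 CPM in clone 2 after stimulation and 64.01, 51.7 and 56.4 CPM in WT, 39.1, 39.4 and 36.7 CPM in clone 1 and 37.3, 34.1 and 33.4 CPM in clone 2 before it. Both clones were below WT in both treatments, with stimulated log2 fold changes of -0.50 (adjusted p = 1.42e-06) and -0.89 (adjusted p = 3.55e-11), and neither difference in response was called (0.08 and -0.19). Polr1a, the largest subunit, rose by log2 fold changes of 1.42 in WT, 1.08 in clone 1 and 1.23 in clone 2, and was lower in both stimulated clones (-0.51 and -0.25).

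Ubtf, the upstream binding factor that opens ribosomal DNA for transcription, went the other way. Its stimulated libraries held 96.6, 109.9 and 97.8 CPM in the WT libraries, 124.9, 124.8 and 125.0 CPM in clone 1 and 143.2, 133.7 and 122.8 CPM in clone 2, every clone library above every WT library (log2 fold change 0.30, SE 0.0619, adjusted p = 0.000126 in clone 1; log2 fold change 0.39, SE 0.0624, adjusted p = 3.45e-06 in clone 2). The uninduced ones held 151.5, 146.7 and 156.4 CPM in WT, 180.7, 200.2 and 170.0 CPM in clone 1 and 177.9, 182.1 and 195.1 CPM in clone 2, again higher in the clones. It fell on stimulation in WT (-0.58), clone 1 (-0.56) and clone 2 (-0.47), each called, and its differences in response were 0.02 and 0.11, neither called. Rrn3, which brings the polymerase to its promoter, measured 84.7, 78.5 and 82.9 CPM in the WT libraries, 74.1, 71.8 and 78.03 CPM in clone 1 and 96.4, 101.5 and 96.2 CPM in clone 2 after stimulation and 63.9, 57.6 and 57.98 CPM in WT, 66.8, 66.4 and 61.8 CPM in clone 1 and 87.3, 82.5 and 82.5 CPM in clone 2 before it. Stimulated clone 2 was above WT (log2 fold change 0.26, SE 0.0576, adjusted p = 0.000346), and clone 1 was below it (log2 fold change -0.14, SE 0.0575, adjusted p = 0.0429). Other genes on its chromosome, 16, had medians of 0.43 in stimulated clone 2 and 0.13 in stimulated clone 1, so Rrn3 lay below its chromosome in both. The clone 1 call was lost without WT stimulated replicate 1 or 3 or clone 1 stimulated replicate 1 or 2 (adjusted p from 0.0792 to 0.158) and with DESeq2 (adjusted p = 0.053). Tcof1, which encodes treacle, was called in 1 of these comparisons, uninduced clone 2 against WT (0.51), and its stimulated values were -0.38 and -0.09 with SEs of 0.183 and 0.184.

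The box C/D snoRNP genes, whose products methylate ribosomal RNA, rose in WT and responded less in both clones, each of the 3 genes by the interaction test in each clone. Nop56, a core scaffold protein, measured 34.8, 26.7 and 33.7 CPM in WT, 38.1, 37.7 and 36.6 CPM in clone 1 and 40.98, 40.3 and 41.8 CPM in clone 2 before stimulation and 110.3, 107.2 and 109.8 CPM in the WT libraries, 76.8, 74.9 and 80.4 CPM in clone 1 and 75.2, 68.4 and 71.98 CPM in clone 2 after it. The order of the groups turned over: uninduced, both clones were above every WT library, and stimulated, both were below. The stimulated log2 fold changes were -0.50 (adjusted p = 2.08e-07) and -0.60 (adjusted p = 8.65e-09), and the differences in response -0.73 (SE 0.1, adjusted p = 7.92e-07) and -0.97 (SE 0.0997, adjusted p = 4.59e-09). The uninduced clone 1 call (0.24, adjusted p = 0.00858) was lost without WT uninduced replicate 2 (0.13, adjusted p = 0.109). Fbl, fibrillarin, the methyltransferase, measured 84.6, 78.99 and 91.4 CPM in the WT libraries, 54.6, 50.7 and 53.5 CPM in clone 1 and 45.3, 42.04 and 41.7 CPM in clone 2 in stimulated cells. Its uninduced libraries overlapped, at 48.4, 49.8 and 60.9 CPM in WT, 53.3, 49.8 and 52.1 CPM in clone 1 and 51.3, 49.7 and 52.4 CPM in clone 2. It rose in WT (log2 fold change 0.67, SE 0.0735, adjusted p = 3.33e-09), fell in clone 2 (log2 fold change -0.25, SE 0.0763, adjusted p = 0.00667) and had a log2 fold change of 0.03 (SE 0.075) in clone 1. Stimulated Fbl was thus -0.68 in clone 1 and -0.98 in clone 2 relative to WT, with adjusted p = 2.62e-09 and 2.45e-12. Nop58, the second scaffold, measured 109.0, 109.8 and 109.9 CPM in the WT libraries, 62.7, 58.7 and 64.9 CPM in clone 1 and 106.3, 96.8 and 103.0 CPM in clone 2 stimulated. Its uninduced values were 49.5, 46.8 and 50.8 CPM in WT, 42.8, 46.99 and 43.3 CPM in clone 1 and 62.2, 61.95 and 62.2 CPM in clone 2. It was lower in stimulated clone 1 (log2 fold change -0.82, SE 0.057, adjusted p = 2.14e-13) and not called in clone 2 (log2 fold change -0.10, SE 0.0563, adjusted p = 0.126), although its response was smaller in both (-0.67 and -0.44).

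Box H/ACA snoRNPs convert uridines of ribosomal RNA to pseudouridine, and all 4 of their core genes responded less in each clone. Dkc1, the pseudouridine synthase dyskerin, measured 21.3, 14.99 and 19.2 CPM in WT, 25.1, 25.1 and 28.01 CPM in clone 1 and 27.3, 24.4 and 29.9 CPM in clone 2 uninduced. Stimulated, it measured 33.2, 36.2 and 38.2 CPM in the WT libraries, 25.9, 26.0 and 23.1 CPM in clone 1 and 27.7, 27.0 and 28.9 CPM in clone 2. WT started lowest and ended highest, with no overlap with either clone in either treatment. Its level rose in WT (log2 fold change 0.96, SE 0.103, adjusted p = 2.8e-09) and not detectably in clone 1 (log2 fold change -0.06, SE 0.103, adjusted p = 0.654) or clone 2 (log2 fold change 0.04, SE 0.102, adjusted p = 0.779), and the differences in response were -1.02 and -0.92 (adjusted p = 1.68e-06 and 8.59e-06). Nhp2, an RNA-binding core protein, measured 61.03, 54.5 and 60.1 CPM in the WT libraries, 41.05, 34.7 and 36.4 CPM in clone 1 and 41.9, 42.7 and 38.1 CPM in clone 2 after stimulation, both clones below WT (-0.65 and -0.52, adjusted p = 1.12e-07 and 6.55e-06). Before stimulation its groups were close, at 27.1, 30.5 and 35.3 CPM in WT, 30.1, 27.5 and 28.3 CPM in clone 1 and 31.2, 33.4 and 30.6 CPM in clone 2. Gar1, at low counts, measured 19.95, 18.7 and 17.99 CPM in the WT libraries, 10.3, 13.1 and 10.7 CPM in clone 1 and 16.6, 18.2 and 15.1 CPM in clone 2 stimulated. Its uninduced values were 8.56, 9.02 and 11.9 CPM in WT, 11.4, 9.65 and 7.46 CPM in clone 1 and 11.3, 14.2 and 15.5 CPM in clone 2. Clone 1 was lower than WT in stimulated cells (log2 fold change -0.72, SE 0.145, adjusted p = 8.83e-05), and clone 2 overlapped WT (log2 fold change -0.18, SE 0.144, adjusted p = 0.3). The Gar1 differences in response (-0.66 and -0.62) were lost without clone 1 uninduced replicate 1 for clone 1 (adjusted p = 0.0882), and without WT stimulated replicate 1, clone 2 uninduced replicate 3 or clone 2 stimulated replicate 3 for clone 2 (adjusted p from 0.054 to 0.0657). Nop10, the smallest core protein, rose by 0.93, 0.61 and 0.51 in WT, clone 1 and clone 2.

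All 6 nucleolar scaffold and helicase genes rose in WT and responded less in both clones. Npm1 had the lowest values relative to WT of the set in both stimulated clones. Its libraries held 405.9, 393.6 and 417.9 CPM in WT, 217.9, 224.0 and 219.1 CPM in clone 1 and 296.6, 310.0 and 293.5 CPM in clone 2 uninduced. Stimulated, it measured 616.4, 609.7 and 604.9 CPM in the WT libraries, 243.4, 236.2 and 242.9 CPM in clone 1 and 291.5, 277.0 and 296.3 CPM in clone 2. The groups did not overlap in either treatment, with WT highest and clone 1 lowest. In stimulated cells the log2 fold changes were -1.34 (SE 0.0419, adjusted p = 7.77e-22) and -1.08 (SE 0.0418, adjusted p = 1.7e-19). Npm1 responded with 0.59 in WT, 0.13 in clone 1 (called, but -0.11 without TMM) and -0.06 in clone 2 (not called). Npm1 has near-identical pseudogene copies, and how reads shared with them were counted is not given in the sources used here.

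Nolc1, a chaperone of snoRNPs, showed the widest gap in response of this group in clone 2. Uninduced libraries of Nolc1 held 35.2, 36.2 and 35.8 CPM in WT, 43.2, 43.8 and 39.9 CPM in clone 1 and 52.5, 52.7 and 61.7 CPM in clone 2, lowest in WT. Its stimulated libraries held 110.3, 113.4 and 97.7 CPM in the WT libraries, 63.6, 63.97 and 64.4 CPM in clone 1 and 81.3, 78.3 and 73.5 CPM in clone 2, highest in WT. It rose by 1.58 in WT, 0.60 in clone 1 and 0.49 in clone 2, and the differences were -0.98 (SE 0.098, adjusted p = 2.03e-09) and -1.09 (SE 0.0969, adjusted p = 2.05e-10). Mybbp1a, a repressor and nucleolar stress protein, measured 134.3, 118.1 and 121.5 CPM in WT, 128.7, 135.1 and 130.0 CPM in clone 1 and 150.1, 145.0 and 157.2 CPM in clone 2 before and 258.4, 259.8 and 239.9 CPM in the WT libraries, 151.8, 149.0 and 143.1 CPM in clone 1 and 180.6, 165.9 and 160.9 CPM in clone 2 after stimulation. Its stimulated values were below WT in every clone library (-0.77 and -0.58, adjusted p = 2.31e-13 and 1.7e-10), and its difference in response was -0.85 in each clone. Gnl3, nucleostemin, a GTPase of proliferating cells, rose by 1.73 in WT and by 0.86 and 0.76 in clones 1 and 2. It was above WT in both uninduced clones and not called in stimulated ones (-0.22 and -0.10). The RNA helicase gene Ddx21 was lower in stimulated clone 1 (log2 fold change -1.27, SE 0.0709, adjusted p = 1.19e-14) and, by less, in clone 2 (log2 fold change -0.42, SE 0.0696, adjusted p = 8.96e-06). Ncl, nucleolin, was the exception in clone 2. It measured 297.6, 289.6 and 315.2 CPM in WT, 287.6, 308.7 and 276.1 CPM in clone 1 and 424.4, 435.4 and 467.4 CPM in clone 2 uninduced and 436.3, 454.4 and 417.9 CPM in the WT libraries, 339.8, 353.1 and 358.0 CPM in clone 1 and 520.2, 461.7 and 456.9 CPM in clone 2 stimulated, below WT in clone 1 (-0.32, adjusted p = 7.54e-06) and above it in clone 2 (0.14, adjusted p = 0.0296), where leaving out WT stimulated replicate 1 or 3 or clone 2 stimulated replicate 1 ended the call (adjusted p from 0.0694 to 0.276).

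Of the 12 factors of small subunit assembly, most of them parts of the processome that forms on the nascent transcript, 11 rose in WT, 11 were lower in stimulated clone 1, and 7 were lower and 1 higher in stimulated clone 2. The response was smaller for 10 in clone 1 and for 6 in clone 2. Rrp9, a protein of a snoRNP that cuts the precursor rRNA, measured 9.96, 17.2 and 16.1 CPM in WT, 18.5, 17.9 and 15.02 CPM in clone 1 and 17.9, 17.8 and 21.1 CPM in clone 2 uninduced. Stimulated, it measured 36.97, 34.7 and 29.4 CPM in the WT libraries, 20.2, 17.9 and 17.8 CPM in clone 1 and 23.5, 25.2 and 23.4 CPM in clone 2. WT rose (log2 fold change 1.21, SE 0.135, adjusted p = 1.51e-08) to more than every clone library, and the differences in response were -1.09 (SE 0.193, adjusted p = 6.01e-05) and -0.86 (SE 0.191, adjusted p = 0.000845). Heatr1, a large scaffold of the processome, measured 54.1, 54.98 and 52.98 CPM in the WT libraries, 27.95, 34.2 and 27.6 CPM in clone 1 and 38.2, 36.9 and 37.9 CPM in clone 2 in stimulated cells. Its uninduced libraries overlapped, at 32.6, 21.4 and 26.6 CPM in WT, 25.5, 18.99 and 22.7 CPM in clone 1 and 26.1, 22.2 and 26.3 CPM in clone 2. It was lower in both stimulated clones (-0.85 and -0.52, adjusted p = 5e-07 and 0.000388), and its response was called smaller in clone 1 (-0.59, adjusted p = 0.00733). In clone 2 that difference was -0.42 (adjusted p = 0.0575), and it passed without WT uninduced replicate 1 or clone 2 uninduced replicate 2 (adjusted p from 0.00228 to 0.0295). Wdr43, whose promoter E-box is printed above, measured 33.1, 37.2 and 41.5 CPM in WT, 47.7, 48.3 and 49.9 CPM in clone 1 and 43.1, 41.2 and 46.4 CPM in clone 2 uninduced. Stimulated, it measured 76.3, 72.8 and 72.5 CPM in the WT libraries, 53.7, 56.2 and 55.5 CPM in clone 1 and 54.3, 50.8 and 51.8 CPM in clone 2. Clone 1 was highest before stimulation, and both clones were below WT after it (-0.42 and -0.50, adjusted p = 4.25e-06 and 4.17e-07).

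Utp4, another processome protein, moved against the group in clone 2. Its libraries held 45.5, 46.03 and 48.7 CPM in WT, 73.7, 73.2 and 69.1 CPM in clone 1 and 73.3, 71.6 and 82.6 CPM in clone 2 uninduced. Stimulated, it measured 90.9, 86.3 and 90.5 CPM in the WT libraries, 99.03, 92.4 and 92.97 CPM in clone 1 and 106.3, 106.2 and 102.4 CPM in clone 2. Every clone library was above every WT library in both treatments, with stimulated log2 fold changes of 0.09 (adjusted p = 0.195) and 0.23 (adjusted p = 0.000894), the second call ending without TMM (0.12, adjusted p = 0.0817). Its response was still smaller in both clones (-0.54 and -0.46, adjusted p = 5.84e-06 and 5.55e-05). Utp20 was the only one of the 12 not called in the WT response (0.14; without WT uninduced replicate 1 it was 0.23 with adjusted p = 0.0251), and it fell in clone 1 (log2 fold change -0.46, SE 0.0948, adjusted p = 0.00014) and clone 2 (log2 fold change -0.34, SE 0.0901, adjusted p = 0.00191). Imp4, whose E-box is also printed, was -0.96 in stimulated clone 1 (adjusted p = 2.65e-12) and -0.08 in clone 2 (not called). In stimulated clone 1 the remaining factors ranged from -0.74 (Rrp12, an export and maturation factor) to -0.30 (Nop9), with Nop14 at -0.46, Ddx10 at -0.39, Noc4l at -0.34 and the RNA acetyltransferase gene Nat10 at -0.31, all called. In clone 2 only Rrp12 (-0.37), Nop14 (-0.27) and Nat10 (-0.23) of these were called. Each of these 3 calls, and that of Utp20 in clone 2, ended on leaving out single libraries. These were WT stimulated replicate 1 or 2 or clone 2 stimulated replicate 1, 2 or 3 for Rrp12 (adjusted p from 0.0689 to 0.11) and WT stimulated replicate 1 or clone 2 stimulated replicate 2 for Nop14 (adjusted p from 0.056 to 0.0609). They were WT stimulated replicate 1 or 2 or clone 2 stimulated replicate 1 or 3 for Nat10 (adjusted p from 0.0587 to 0.233) and WT stimulated replicate 2 or clone 2 stimulated replicate 3 for Utp20 (adjusted p from 0.0555 to 0.08). The smaller clone 1 responses of Rrp12 and Nop14 were likewise lost without single libraries (adjusted p from 0.0512 to 0.0898 and from 0.0638 to 0.111), as was that of Rrp12 in clone 2 (adjusted p from 0.0533 to 0.0839). For Nop9, 29.9% of exonic bases lie under Cideb on the opposite strand, and without a stated strand setting reads of the pair cannot be told apart.

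Large subunit assembly showed the same direction. Of its 10 tested genes, 9 rose in WT, 9 were lower in stimulated clone 1 and 8 in stimulated clone 2, none was called higher (0) in either, and 7 responded less in each clone. Ppan, a factor of early large subunit maturation, had the largest negative difference in response of the set in clone 1. Ppan libraries held 13.8, 15.8 and 17.2 CPM in WT, 15.5, 16.7 and 16.7 CPM in clone 1 and 19.5, 17.1 and 19.5 CPM in clone 2 uninduced. Stimulated, it measured 42.8, 44.7 and 40.2 CPM in the WT libraries, 22.3, 17.04 and 18.1 CPM in clone 1 and 28.2, 28.8 and 27.1 CPM in clone 2. Uninduced, WT overlapped both clones, and stimulated the groups were apart, with WT above clone 2 and clone 2 above clone 1. The differences in response were -1.22 (SE 0.143, adjusted p = 5.62e-08) and -0.86 (SE 0.141, adjusted p = 1.43e-05), and the stimulated log2 fold changes -1.16 and -0.60. Nop2, a methyltransferase of the large subunit rRNA with an E-box just before its start, measured 36.7, 32.8 and 34.4 CPM in WT, 31.1, 34.4 and 28.9 CPM in clone 1 and 34.7, 32.4 and 34.7 CPM in clone 2 before and 100.1, 101.2 and 95.01 CPM in the WT libraries, 54.04, 49.3 and 48.6 CPM in clone 1 and 63.7, 52.2 and 59.6 CPM in clone 2 after stimulation. It rose in all genotypes, less in clone 1 (difference -0.83, SE 0.107, adjusted p = 3.15e-07) and clone 2 (difference -0.73, SE 0.106, adjusted p = 2.61e-06). Pes1, of the PeBoW complex, measured 80.02, 77.3 and 79.5 CPM in WT, 68.2, 66.9 and 71.4 CPM in clone 1 and 72.97, 72.8 and 77.6 CPM in clone 2 uninduced. Stimulated, it measured 121.1, 119.2 and 118.8 CPM in the WT libraries, 82.1, 79.9 and 77.6 CPM in clone 1 and 83.6, 78.3 and 78.7 CPM in clone 2. The clones overlapped each other and lay below WT after stimulation, both at a log2 fold change of -0.58 (adjusted p = 3.8e-11 and 7.2e-11).

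The other PeBoW genes differed from Pes1. Bop1 was above WT in both uninduced clones and not called in stimulated ones (-0.08 and 0.02), with smaller responses (-0.71 and -0.70). Wdr12 had a WT response of 0.07 (not called) and was lower in stimulated clone 1 (-0.83) and clone 2 (-0.34). Rrp1b, a nucleolar protein also linked to transcription, had the largest response of the set. Its libraries rose from 17.01, 12.8 and 11.02 CPM in WT, 10.04, 11.2 and 7.87 CPM in clone 1 and 7.07, 7.35 and 6.96 CPM in clone 2 to 103.8, 99.9 and 94.01 CPM in the WT libraries, 77.3, 79.9 and 88.7 CPM in clone 1 and 54.8, 53.1 and 48.9 CPM in clone 2. The log2 fold changes were 2.88, 3.08 and 2.87 in WT, clone 1 and clone 2, and the differences in response, 0.20 (SE 0.161) and -0.01 (SE 0.172), were not called. It was lower in both clones after stimulation (-0.28 and -0.92), although the clone 1 call was lost without WT stimulated replicate 1 or clone 1 stimulated replicate 1 or 2 (adjusted p from 0.0515 to 0.0671). Among the rest, Ddx18 (-0.78 and -0.28 in stimulated clones 1 and 2), Noc2l (-0.48 and -0.45) and Nop16 (-0.42 and -0.38) were lower in both. Noc3l was lower in clone 1 (-0.28) and not called in clone 2 (0.02). Samd11 covers 20.9% of the exonic bases of Noc2l on the opposite strand.

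The 3 metabolic MYC targets did not move as one. Ppat, which starts purine synthesis, measured 19.9, 18.3 and 22.1 CPM in WT, 17.7, 19.04 and 17.9 CPM in clone 1 and 17.1, 16.9 and 18.5 CPM in clone 2 uninduced. Stimulated, it measured 39.4, 38.96 and 39.5 CPM in the WT libraries, 27.8, 22.2 and 21.9 CPM in clone 1 and 30.03, 26.9 and 26.3 CPM in clone 2. Both stimulated clones lay below WT (log2 fold change -0.72, SE 0.0933, adjusted p = 1.09e-07; log2 fold change -0.50, SE 0.0939, adjusted p = 3.91e-05). Odc1, which starts polyamine synthesis, measured 157.0, 166.9 and 144.2 CPM in WT, 171.0, 172.1 and 161.3 CPM in clone 1 and 174.8, 204.9 and 177.6 CPM in clone 2 uninduced and 170.8, 185.8 and 181.4 CPM in the WT libraries, 200.6, 194.0 and 188.6 CPM in clone 1 and 260.6, 270.0 and 269.5 CPM in clone 2 stimulated, and was higher in stimulated clone 2 (log2 fold change 0.57, SE 0.0574, adjusted p = 7.72e-10) and not called in clone 1 (log2 fold change 0.12, SE 0.0573, adjusted p = 0.0833). Odc1 responded by 0.20 in WT, called with TMM and -0.02 without it, and by 0.52 in clone 2. Srm, spermidine synthase, measured 75.4, 70.2 and 68.5 CPM in the WT libraries, 77.7, 70.1 and 69.01 CPM in clone 1 and 77.99, 72.97 and 70.1 CPM in clone 2 in stimulated cells, where the genotypes overlapped (0.02 and 0.05, neither called). Uninduced, it measured 39.8, 34.2 and 39.9 CPM in WT, 44.1, 41.3 and 42.6 CPM in clone 1 and 54.1, 53.6 and 48.9 CPM in clone 2, and its response was smaller in clone 2 (difference -0.41, SE 0.0989, adjusted p = 0.00148).

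The clones also differed from each other. In stimulated cells 28 of the 49 genes were lower and 5 higher in clone 1 than in clone 2, with a median of -0.26, where 23.2% of all tested genes were lower and 22.2% higher. Without TMM the genes called lower numbered 18, the median was -0.17, and all genes split into 18.6% lower and 28.3% higher. Whole chromosomes were shifted between the lines, which bears on any single gene. Over 10010 genes whose mean was 5 CPM or more, the chromosome medians of stimulated clone 1 against WT ran from -0.43 on chromosome 10 to 0.45 on chromosome 15, and those of clone 2 from -0.28 on chromosome 13 to 0.43 on chromosome 15. Uninduced cells gave nearly the same ranges, -0.41 to 0.46 and -0.25 to 0.46. The responses to stimulation had chromosome medians no further from 0 than 0.10 in either direction, and the differences in response ran from -0.06 to 0.04. What lies behind the shifts was not tested.

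Myc and Bop1 are the members on chromosome 15. Myc, at -0.11 and 0.14 relative to WT in stimulated clones 1 and 2, lay -0.56 and -0.29 from the median of its chromosome. Bop1 lay -0.53 and -0.41 from it. Ddx21 and Utp20, both on chromosome 10, were -1.27 and -1.08 in clone 1, and -0.84 and -0.65 relative to their chromosome. Centred in this way on its own chromosome, the median gene was -0.50 in stimulated clone 1, -0.25 in stimulated clone 2, -0.48 and -0.41 for the differences in response, and 0.84 for the WT response. Between stimulated clones, the difference of a gene went with that of its chromosome (Pearson r = 0.719, Spearman rho = 0.675 over 49 genes on 20 chromosomes that share the same libraries, given as a description). The SD of the differences between the clones was 0.324, and 0.224 after centring, and 44 of the 49 genes lay below their chromosome's median.

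**Figure D4:**
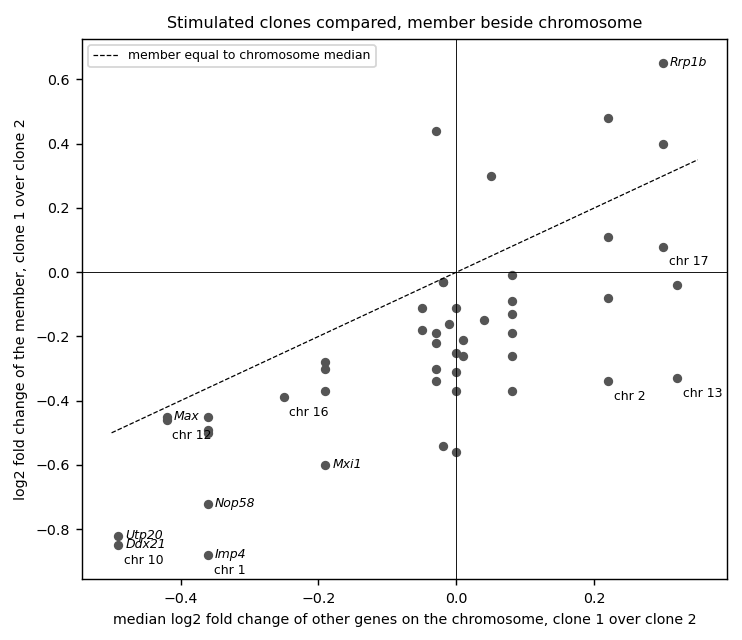
Log2 difference of stimulated clone 1 from stimulated clone 2 for each of the 49 tested genes (y axis) against the median difference of other genes on its chromosome (x axis). Genes on chromosomes that are lower in clone 1 tend to be lower, and 44 of 49 lie under the line of equality.

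The further assembly factors moved in the same direction, and the other RNA polymerase I genes did so in part. Beside the counts of these lists stand the shares of all tested genes. These were 28.8% that rose in WT, 15.7% and 15.3% that responded less in clones 1 and 2, and 30.5% and 28.3% lower in the stimulated clones. Of 39 further small subunit factors, 35 rose in WT, and the response was smaller for 26 in clone 1 and 24 in clone 2. In stimulated cells 27 were lower and 1 higher in clone 1, and 20 lower and 3 higher in clone 2. Tbl3 (-0.67 (adjusted p = 6.68e-08) and -0.91 (adjusted p = 2.92e-10)) and Utp11 (-0.91 (adjusted p = 2.34e-11) and -0.63 (adjusted p = 4.75e-08)) were lower in stimulated clones 1 and 2. Of 40 further large subunit factors, 34 rose in WT, 23 responded less in each clone, and 30 and 19 were lower in stimulated clones 1 and 2 (1 and 5 higher). Las1l, which encodes an endonuclease, was -1.25 (adjusted p = 2.06e-15) and -0.73 (adjusted p = 3.22e-10), and Ebna1bp2 was -1.16 (adjusted p = 2.62e-14) and -0.86 (adjusted p = 2.86e-11). Of 11 other RNA polymerase I genes, 5 rose in WT, and 7 and 3 were lower in the stimulated clones (0 and 3 higher), so that clone 2 was near the background of 28.3% and 27.7%, with a median of 0.0. Their difference in response was called lower for 2 in clone 1 and 1 in clone 2, which is 18.2% and 9.09% of them beside 15.7% and 15.3% of all genes, with medians of -0.22 and 0.04. Both named by the rule were lower in both stimulated clones, with Polr1e at -0.61 (adjusted p = 0.000353) and -0.71 (adjusted p = 9.1e-05) and Taf1d at -0.75 (adjusted p = 3.23e-07) and -0.45 (adjusted p = 0.000567).

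Among 27 other MYC target enzymes and factors, 22 rose in WT, 19 responded less in each clone, and 20 and 17 were lower in the stimulated clones (3 and 6 higher), with medians of -0.58 and -0.42. Cad, the enzyme that starts pyrimidine synthesis, was -1.45 (adjusted p = 3.96e-17) and -1.51 (adjusted p = 2.69e-17), and the cyclin gene Ccnd2 was -1.86 (adjusted p = 1.12e-21) and -0.79 (adjusted p = 5.91e-13). Of the other MYC network genes 6 of 8 were tested, and 2 and 1 were lower and 3 and 3 higher in the stimulated clones. Mycl, a relative of Myc, had 97 counts over the uninduced and 54 over the stimulated WT libraries, and between 0 and 2 over each group of the clones. Mlx, the partner of the MLX branch of the network, was 1.15 (adjusted p = 4.53e-12) and 1.04 (adjusted p = 7.26e-11).

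Ribosomal protein genes, the protein parts of the ribosome itself, had a different profile. Of 76 cytosolic ribosomal protein genes, 52 rose in WT, 48 in clone 1 and 44 in clone 2, none fell (0), and the medians were 0.30, 0.28 and 0.26. Over all tested genes 28.8% rose in WT, 25.9% in clone 1 and 26.7% in clone 2. For the ribosomal protein genes the difference in response was called lower for 3 and higher for 2 in clone 1, and lower for 4 and higher for 0 in clone 2, with medians of -0.03 and -0.05. Its background was 15.7% lower and 15.9% higher in clone 1, and 15.3% and 15.9% in clone 2. Ribosomal protein genes were lower in the clones in both treatments, 36 and 39 of them in uninduced clones 1 and 2 (median -0.20 in each) and 42 in each stimulated clone (medians -0.26 and -0.23). The background was 27.2% and 26.9% lower in uninduced clones 1 and 2, and 30.5% and 28.3% in stimulated ones. Rpl26 was -1.33 (adjusted p = 0.0288) and -0.99 (adjusted p = 0.099) in stimulated clones 1 and 2. The contrast with the biogenesis genes was not tested as such. Pseudogene copies of many ribosomal protein genes may share their reads.

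Of the 24 cell cycle genes, 14 were higher and 4 lower in stimulated clone 1, and 7 higher and 11 lower in stimulated clone 2. Over all tested genes, 28.4% were higher and 30.5% lower in stimulated clone 1, and 27.7% and 28.3% in stimulated clone 2. These shares stand beside each marker list that follows. The 29.2% of cell cycle genes higher in clone 2 was near the 27.7%. For the cell cycle genes the difference in response was called higher for 8 and lower for 7 in clone 1, and lower for 13 and higher for 0 in clone 2. The background of this test was 15.9% higher and 15.7% lower in clone 1, and 15.9% and 15.3% in clone 2. Mki67, a proliferation marker, was 1.49 (adjusted p = 0.000185) and 1.10 (adjusted p = 0.00261) in stimulated clones 1 and 2, and the cyclin gene Ccne1 was -1.0 (adjusted p = 3.38e-06) and -0.98 (adjusted p = 7.16e-06). The biogenesis genes were lower than WT in stimulated clone 1 beside a higher sum of cell cycle genes, and in clone 2 beside a sum that overlapped that of WT. Of 7 smooth muscle and myofibroblast genes tested, 5 were lower and 1 higher in stimulated clone 1, and 3 lower and 1 higher in stimulated clone 2, the higher one being Des (2.19 and 2.28), named after its values were seen. The gene Acta2 (-2.73 (adjusted p = 1.27e-26) and -2.65 (adjusted p = 2.35e-26)) was lower in stimulated clones 1 and 2, and Actg2 had 1462 counts over the stimulated WT libraries and 11 and 6 over those of clones 1 and 2. Of 8 adipocyte genes tested, 7 were higher and 1 lower in stimulated clone 1, and 3 higher and 1 lower in stimulated clone 2, and the sum of the list had a median of 56.3 CPM in WT and of 192.6 and 51.5 CPM in clones 1 and 2. Of its members Plin1 and Adipoq, stimulated WT libraries held no count, clone 1 libraries held 538 and 15 counts in sum, and those of clone 2 held 31 and 6. Of 3 macrophage genes tested, Lyz2 and Cd14 were higher in both stimulated clones, Cd14 by 2.15 (adjusted p = 7.54e-10) and 1.84 (adjusted p = 1.93e-08). Cd14 held at most 8.5 CPM in a WT library and 46.9 CPM in a clone library, and Lyz2 at most 0.944 and 6.3 CPM, while Ptprc was at 0 in every group. The 1 endothelial gene tested, Tek, was lower in both stimulated clones and had at most 6.52 CPM in any library. Of 10 fibroblast genes, 4 were lower and 4 higher in stimulated clone 1, and 5 lower and 2 higher in stimulated clone 2. Of these, Pdgfra (-1.24 (adjusted p = 2.81e-19) and -1.28 (adjusted p = 1.43e-19)) was lower in both, and S100a4 (0.46 (adjusted p = 0.059) and 0.39 (adjusted p = 0.124)) was called in neither. Thy1, named after its values were seen, went in opposite directions in the clones, at 1.72 and -7.14 stimulated and 1.63 and -6.62 uninduced. The part of these cell states in the biogenesis values was not tested.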

How the data were processed

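Poly(A) RNA of 18 libraries was sequenced with paired-end reads on an Illumina NovaSeq. Per the paper's methods, reads were mapped to GRCm38 (mm10) with HISAT2; not given in the sources used here were the counting program, annotation release and strand setting. The authors deposited raw counts per gene with gene positions and lengths, and 0 columns of counts were left unmapped. The study tested with DESeq2.

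Here the deposited counts were filtered (edgeR 4.0.16 filterByExpr, minimum count 10), scaled by TMM and fitted with 1 mean per group over all 18 libraries (glmQLFit, robust; glmQLFTest; limma 3.58.1; R 4.3.3). P-values were adjusted by Benjamini-Hochberg over 14317 genes, and a call needed an adjusted p below 0.05. DEGs also needed an absolute log2 fold change above 1. The SE is the absolute log2 fold change over the square root of F. CPM values were TMM-scaled. The procedure was tested on simulated data. Alternatives were the DESeq2 1.42.0 test and size factors, no TMM, other filters, only the groups compared, a replicate block, chromosome centring and each library left out. Figures used Python 3.11.15 and matplotlib 3.10.9. Promoters came from RefSeq.

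Totals per library (median 20178953.5 counts) set the precision of low genes. The variance within replicate pairs was 3.13 to 14.7 times that of counting error (chi-square per degree of freedom, 18 pairs), so no pair was the same library under 2 names. The genes and lists were chosen with earlier results of these data known. All 50 genes are named. Values per library are given for the MYC network, for up to 3 genes of each other role with the largest smaller absolute log2 fold change of both stimulated clones (same sign in both), and for genes moving against their role, and 2 genes were named from each other list by the same measure, of which 1 is not reported here. Rrp1b was given values per library after its values were seen. Of the 50 genes, 2 have over 10% of their exonic bases under another gene.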

Additional observations from a re-analysis of the deposited data

Results flagged for a closer look

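These results stand out because a gene's response in a clone differed from its response in WT, tested as a difference. In clone 1 the response to stimulation differed from that of WT for 37 genes by the interaction test of edgeR (adjusted p below 0.05), and the values are the log2 response of the clone minus that of WT. Within the MYC network it was -0.29 for Myc, 0.41 for Mxd4 and 0.88 for Mxi1. For the RNA polymerase I machinery the values were -0.34 for Polr1a, -0.89 for Polr1b and -0.26 for Rrn3. Those of the box C/D snoRNPs were -0.73 for Nop56, -0.67 for Nop58 and -0.64 for Fbl. In the box H/ACA snoRNPs they were -1.02 for Dkc1, -0.66 for Gar1, -0.53 for Nhp2 and -0.33 for Nop10. Among the nucleolar scaffold and helicase genes the difference was -0.98 for Nolc1, -0.27 for Ncl, -0.46 for Npm1, -0.87 for Gnl3, -0.85 for Mybbp1a and -0.75 for Ddx21. Factors of small subunit assembly gave -0.35 for Nop14, -0.29 for Nop9, -0.80 for Wdr43, -0.60 for Utp20, -0.54 for Utp4, -1.09 for Rrp9, -0.58 for Rrp12, -0.59 for Heatr1, -0.49 for Imp4 and -0.47 for Nat10. Factors of large subunit assembly gave -0.83 for Nop2, -0.65 for Nop16, -0.71 for Bop1, -0.39 for Pes1, -0.79 for Noc2l, -0.52 for Ddx18 and -1.22 for Ppan. In polyamine and purine synthesis the value was -0.57 for Ppat.

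In clone 2 the response to stimulation differed from that of WT for 31 genes by the interaction test of edgeR (adjusted p below 0.05), and the values are the log2 response of the clone minus that of WT. Within the MYC network it was 0.21 for Mxd4 and 1.03 for Mxi1. For the RNA polymerase I machinery the value was -0.24 for Rrn3. Those of the box C/D snoRNPs were -0.97 for Nop56, -0.44 for Nop58 and -0.92 for Fbl. In the box H/ACA snoRNPs they were -0.92 for Dkc1, -0.62 for Gar1, -0.55 for Nhp2 and -0.42 for Nop10. Among the nucleolar scaffold and helicase genes the difference was -1.09 for Nolc1, -0.42 for Ncl, -0.65 for Npm1, -0.96 for Gnl3, -0.85 for Mybbp1a and -0.71 for Ddx21. Factors of small subunit assembly gave -0.71 for Wdr43, -0.48 for Utp20, -0.46 for Utp4, -0.86 for Rrp9, -0.60 for Rrp12 and -0.49 for Nat10. Factors of large subunit assembly gave -0.73 for Nop2, -0.70 for Bop1, -0.49 for Pes1, -0.40 for Wdr12, -0.52 for Noc2l, -0.59 for Ddx18 and -0.86 for Ppan. Enzymes of polyamine and purine synthesis gave -0.41 for Srm and 0.32 for Odc1. Both clones share their WT libraries in these tests.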

How the results depend on the processing

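Across 25 alternatives, 6958 comparisons of single genes were repeated; 6623 kept their direction and side of the threshold, 222 lost the call, 102 gained one and 11 reversed, all 11 with library totals in place of TMM. With 1 of 18 libraries left out, 3326 of 3528 kept theirs, 155 lost the call, 47 gained one and 0 reversed. Scaling mattered most: without TMM, stimulated clone 2 against WT gave 3 genes higher, 5 DEGs lower and a median of -0.39, the WT response had a median of 0.69, the clone 1 response 10 lower, 18 higher, 2 DEGs higher and a median of 0.02, the clone 2 response 14 lower and a median of 0.19, the clone 2 difference in response a median of -0.50, and clone 1 against clone 2 18 lower and a median of -0.17. The reversed responses were Odc1 in WT (-0.02), Rrn3 (-0.04), Npm1 (-0.11), Mybbp1a (-0.07), Wdr43 (-0.06), Pes1 (-0.03) and Odc1 (-0.03) in clone 1, and Polr1c (-0.05), Rrn3 (-0.07), Mybbp1a (-0.13) and Wdr43 (-0.03) in clone 2. Without a filter, stimulated clone 2 had 2 DEGs lower, uninduced clone 2 a median of 0.25 and the clone 2 difference in response one of -0.50. Centred on its chromosome, the median was 0.84 for the WT response and -0.18 for clone 1 against clone 2. Leaving out single libraries moved the DEGs lower in stimulated clone 2 from 1 to 2, the uninduced clone 2 median from 0.13 to 0.20 and the WT response median from 0.84 to 0.94. The cause of these changes was not tested. Same-numbered libraries did not deviate together (45 pairs, r from -0.0412 to 0.0498), so the numbers do not pair them; with the replicate block 485 of 490 calls were as before, 2 were lost and 3 gained, among them Myc in uninduced clones 1 and 2 against WT (0.18 in each, adjusted p = 0.0498 and 0.0453), and the differences in response gave 35 and 28 genes lower, as many as without it. Depth limits the low genes: Wdr74 was untested, and calls of Gar1 were lost on leaving out single libraries.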
